A study of Mus musculus with 6 samples.

Results

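Potassium channel genes were followed in mice that overexpress Hlx in fat and in their wild-type littermates, in the inguinal white fat depot (iWAT). They were taken as every row of the gene table with a symbol beginning with Kcn, the stem that mouse nomenclature gives to potassium channel subunits. This gave 97 rows for 95 symbols among 19445 loci, since Kcnk4 and Kcnj15 each had 2 rows at one locus. A total of 28 rows, for 26 symbols, had a mean above 1 FPKM (fragments mapped to a gene, scaled to its transcript length and to the reads mapped in the library) in a genotype and were tested together with all other loci past that limit, 11692 in all. The prefix also takes in accessory subunits, which form no pore, and one non-coding RNA, Kcnq1ot1.

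RNA-Seq was made from iWAT of 12-week-old mice, with 3 transgenic (TG) and 3 wild-type (WT) animals and 1 library from each. The TG mice carried an Hlx cDNA behind the aP2 (Fabp4) promoter, which drives expression in brown and white fat, and their founders were C57BL/6 and SJL hybrids crossed back to C57BL/6. Controls were littermates without the transgene, and no treatment was given in the labels for either group. Hlx is a homeobox transcription factor, and the comparison asked how its overexpression in fat changed the iWAT transcriptome.

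Potassium channels let potassium leave the cell down its gradient and so set or restore the negative resting potential. Two-pore-domain (K2P) channels carry a background leak, inward rectifiers (Kir) pass current near rest, voltage-gated (Kv) channels open on depolarization, and calcium-activated channels couple intracellular calcium to the membrane potential. Kcnk3 encodes TASK-1, an acid-sensitive leak channel that is known to be enriched in brown and beige adipocytes, where it counters depolarization during adrenergic stimulation.

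The transgene was read first. Hlx averaged 96.2 ± 15.3 FPKM (SD, n = 3) in TG mice and 7.45 ± 0.637 FPKM (SD, n = 3) in WT mice. The mice were labelled male, but Xist was present at 20.2 to 33.6 FPKM in all 6 libraries and all 28 loci of the Y chromosome in the table were at 0, so the sex in the labels went against the data in both genotypes alike. Adipocyte markers summed to 27580 to 32777 FPKM in TG and 23275 to 28936 FPKM in WT mice, most of it Fabp4, while Adipoq was called lower in TG mice (1363 against 2481 FPKM, log2 fold change -0.85, limma adjusted p = 0.0172). The thermogenic adipocyte markers summed to 5003 to 6397 FPKM against 553 to 969 FPKM. Macrophage markers summed to 94.5 to 119 FPKM in TG and 154 to 198 FPKM in WT mice. TG mouse 2 stood apart in skeletal muscle markers, with a sum of 1075 FPKM where the other 5 mice had 207 to 392 FPKM. In these 5 mice most of the sum was Tnnt3, at 163 to 254 FPKM. Acta1 of the same list ranged from 2.36 to 39.5 FPKM in them and was at 187 FPKM in TG mouse 2. In whole tissue, fewer cells of a type and less RNA per cell cannot be told apart.

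The channels share the stretch of the pore that gives them potassium selectivity, the signature of threonine, any residue, glycine, tyrosine or phenylalanine, and glycine. It is shown here for some members whose level differed between genotypes, as 24 coding bases each, with the 15 bases of the signature codons in capitals (GENCODE vM21 coding sequences on GRCm38, 5′ to 3′ on the coding strand).
Kcnk3, first pore: gtcatcaccACCATCGGCTATGGT
Kcnk3, second pore: accctcaccACCATCGGCTTCGGC
Kcnk4, first pore: atcatcactACCATCGGCTATGGC
Kcnk4, second pore: actctcaccACTGTAGGCTTTGGC
Kcnj8: gttcaagtgACCATTGGGTTTGGA
Kcnj11: gtccaggtgACCATTGGTTTCGGC
Kcng4: tccatgacgACCGTGGGCTATGGG
Kcns3: agtatgaccACAGTGGGCTATGGA

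The second signature of Kcnk3 lay in exon 2 of 2, at chr5:30622193-30622216 on the plus strand, while the codons of the first were split between exons 1 and 2. The Kcns3 signature lay in exon 3 of 3 at chr12:11091575-11091598 on the minus strand. In-frame matches were found in 14 of 14 K2P genes, 11 of which held 2, the layout from which the class takes its name. They were also found in 14 of 15 Kir, 33 of 40 Kv, 5 of 8 calcium- or sodium-activated and 0 of 17 accessory genes, and Kcnj14 was the Kir gene without one. In the mouse coding genes as a whole, 228 of 21816 (1.05%) held at least 1 match, so 162 genes outside the Kcn group held these codons too.

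Summed over the 97 rows, potassium channel transcripts were higher in TG mice, at 200.4 ± 8.15 FPKM against 134 ± 4.24 FPKM (SD, n = 3 each). Kcnk3 made up the difference. Without it, the other 96 rows summed to 104.4, 105.7 and 101.1 FPKM in the TG mice and to 105.2, 108.6 and 101.5 FPKM in the WT mice, and the genotypes overlapped. The K2P class summed to 116 ± 8.18 FPKM in TG and 47.3 ± 0.773 FPKM in WT mice, and its rows other than Kcnk3 to 19.7 ± 0.331 and 18.2 ± 2.23 FPKM. The Kv sums were 38.6 ± 3.57 and 36.2 ± 3.18 FPKM, the Kir sums 16.1 ± 1.86 and 16.2 ± 2.07 FPKM, the calcium- or sodium-activated sums 14.3 ± 2.69 and 15.2 ± 0.165 FPKM, and the accessory sums 14.9 ± 2.74 and 19.3 ± 1.88 FPKM, TG first. Within the Kv and Kir classes, single genes nonetheless differed in opposite directions.

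**Figure D1:**
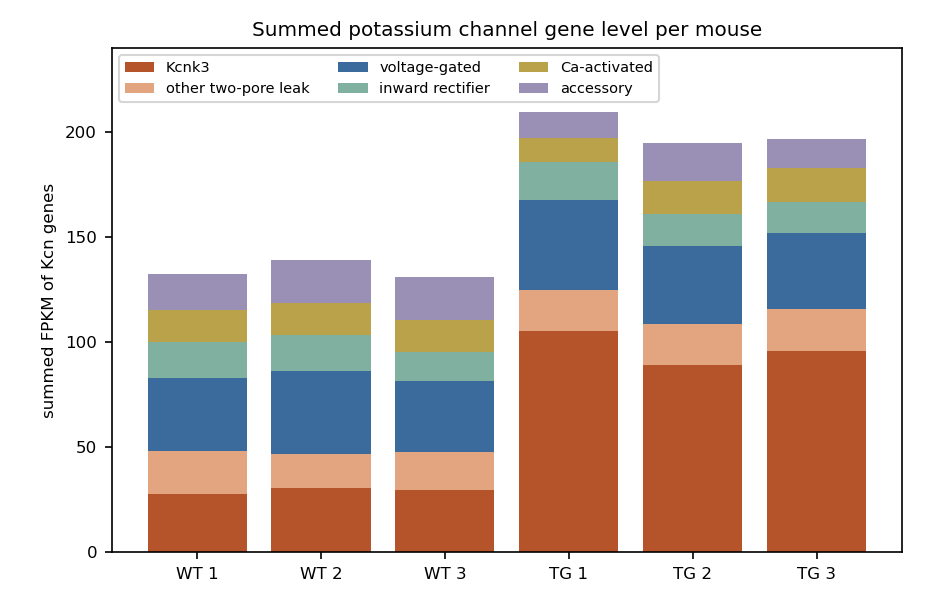
Summed FPKM of the Kcn genes in each mouse (bars from 0), with WT mice 1 to 3 on the left and TG mice 1 to 3 on the right, divided into Kcnk3, the other K2P genes and the other classes. The Kcnk3 block takes 20.7% to 22.5% of the bar in WT and 45.7% to 50.2% in TG mice, while the remainder has about the same height in all 6.

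Of the 28 tested rows, 9 were higher and 4 were lower in TG mice at an adjusted p below 0.05 (limma on log2(FPKM + 1), 2-sided, Benjamini-Hochberg over all 11692 loci), and 15 were not called. They stand for 8 higher and 3 lower genes. Across all tested loci, 11.6% were called higher, 7.03% lower and 18.6% in either direction, beside 46.4% of the Kcn rows. In 16 of the 28 rows (57.1%) the FPKM values of the 2 genotypes did not overlap, as in 42.9% of all loci. The median log2 fold change of the Kcn rows was -0.12 and that of all loci -0.01, while the medians of the absolute log2 fold change were 0.44 and 0.21.

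A total of 12 of the 28 rows passed the level limit in 1 genotype alone, 6 through TG and 6 through WT mice, and such rows had to differ in level to some degree. Among the 16 rows that passed in both genotypes, 4 were called higher and 1 lower, or 31.25% called, beside 18.6% of all loci tested. The share among all loci that passed in both genotypes was not computed. The count of 9 higher rows was lower whichever mouse was left out. It was 3 without TG mouse 1 and without WT mouse 3, 4 without TG mouse 3, WT mouse 1 or WT mouse 2, and 8 without TG mouse 2, the mouse high in muscle markers. The 4 lower rows became 2 without WT mouse 2, and were 3 or 4 otherwise. Calls over all loci fell too when a mouse other than TG mouse 2 was left out, to between 9.76% and 13.2% of the loci tested, beside 21.4% to 25.9% of the Kcn rows. With no level filter, 8 of 97 Kcn rows (8.25%) were called, beside 5.81% of all 19445 loci. Kcnk3, Kcng4, Kcns3 and the first Kcnj15 row were called whichever mouse was left out.

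**Figure D2:**
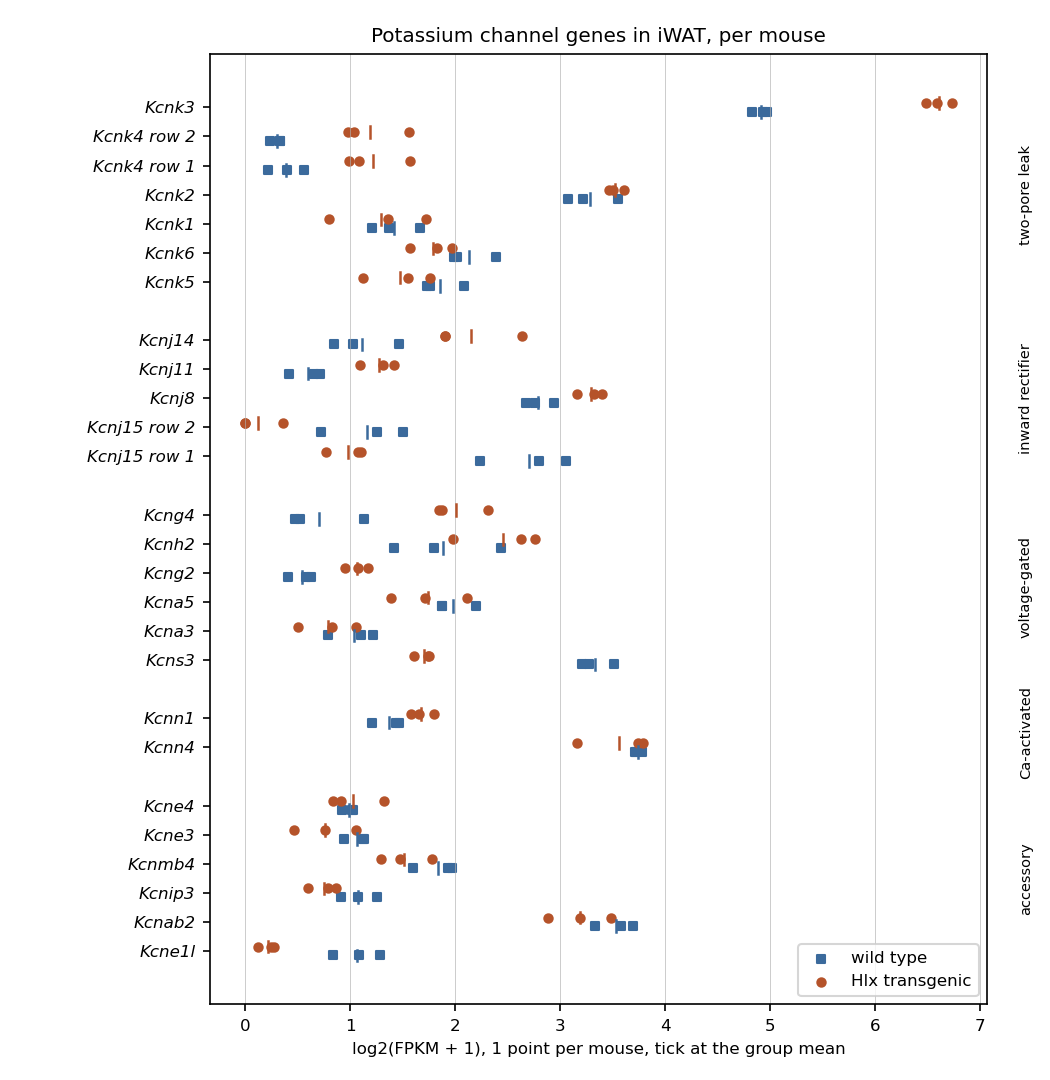
Level of 26 of the tested Kcn rows as log2(FPKM + 1), grouped by channel class, with 1 point per mouse (orange circles TG, blue squares WT, n = 3 each) and a tick at each group mean. Kcnk3 is the highest row in all mice and its TG points lie well above its WT points, whereas Kcns3 and Kcnj15 have their WT points on the right.

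Kcnk3 had the highest level of all Kcn rows in each of the 6 mice. It was read at 105.3, 88.9 and 95.8 FPKM in the TG mice and at 27.4, 30.4 and 29.5 FPKM in the WT mice. The lowest TG value was far above the highest WT value, and neither genotype spread widely. The mean rose from 29.1 ± 1.55 to 96.7 ± 8.23 FPKM (SD, n = 3 each), a ratio of 3.32, and the log2 fold change was 1.70 (SE 0.09, 95% interval 1.48 to 1.91, limma adjusted p = 0.000231). This placed it at rank 106 from the top among the fold changes of 11692 loci. Its transcript lay at rank 2397 to 2746 by level among all loci in WT mice and at rank 749 to 870 in TG mice. Its share of all Kcn FPKM was 20.7%, 21.9% and 22.5% in WT and 50.2%, 45.7% and 48.7% in TG mice. The call held under all 14 alternative settings, with log2 fold changes of 1.62 to 1.75 and adjusted p of at most 0.0061. The deposited locus of the gene was chr5:30573986-30625270.

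Kcnk4, which encodes the mechanosensitive and lipid-sensitive leak channel TRAAK, also rose but was a low transcript. Its first row was at 1.96, 0.987 and 1.12 FPKM in TG and 0.161, 0.315 and 0.478 FPKM in WT mice (log2 fold change 0.82, limma adjusted p = 0.0283). Its second row, at the same locus, was at 1.95, 0.969 and 1.05 FPKM in TG and 0.258, 0.179 and 0.261 FPKM in WT mice (log2 fold change 0.89, limma adjusted p = 0.0188). All TG values were above all WT values in both rows, and TG mouse 1 was the highest by a wide margin. The 2 rows share a locus and are counted here as 1 gene, and both passed the limit in TG mice alone. The second row was no longer called without WT mouse 2 or 3 (limma adjusted p = 0.0589 and 0.0581), and the first was called only when the mouse left out was TG mouse 2 (limma adjusted p = 0.0543 to 0.0771 without each of the others). With no level filter neither row was called (limma adjusted p = 0.0810 and 0.0593, first row first). With the replicate number as a block the first row was not called (limma adjusted p = 0.0699).

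The other K2P genes did not pass the test. Kcnk2, which encodes the related mechanosensitive channel TREK-1 and was the second most abundant of the class, was at 11.2, 10.4 and 10.1 FPKM in TG and 10.7, 7.44 and 8.30 FPKM in WT mice. The genotypes overlapped through WT mouse 1, and the log2 fold change of 0.25 had a 95% interval of -0.06 to 0.55 (limma adjusted p = 0.216), which lies wholly below that of Kcnk3. Kcnk6 (TWIK-2) was at 1.96, 2.54 and 2.91 FPKM in TG and 2.98, 3.05 and 4.25 FPKM in WT mice. All its TG values were below all WT values by a narrow gap, with a log2 fold change of -0.35 and a 95% interval of -0.72 to 0.02. Kcnk5 (TASK-2) had means of 1.83 and 2.64 FPKM and Kcnk1 (TWIK-1) of 1.53 and 1.69 FPKM in TG and WT mice, with log2 fold changes of -0.38 and -0.12 and overlapping values. TG mouse 1 was lowest of all mice for Kcnk1, Kcnk5 and Kcnk6, and it also had the lowest sum of epithelial markers, 93.5 FPKM beside 125 to 225 FPKM in the other 5. The part of these markers in the levels was not tested.

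Kcnk9, which encodes TASK-3, the closest relative of TASK-1, was at 0 in all 6 mice. The other 7 K2P genes of the table had group means below the limit, the highest being Kcnk13 with 0.442 FPKM in TG and 0.731 FPKM in WT mice. Leak channel transcript in this tissue was thus mostly Kcnk3 and Kcnk2 in both genotypes.

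**Figure D3:**
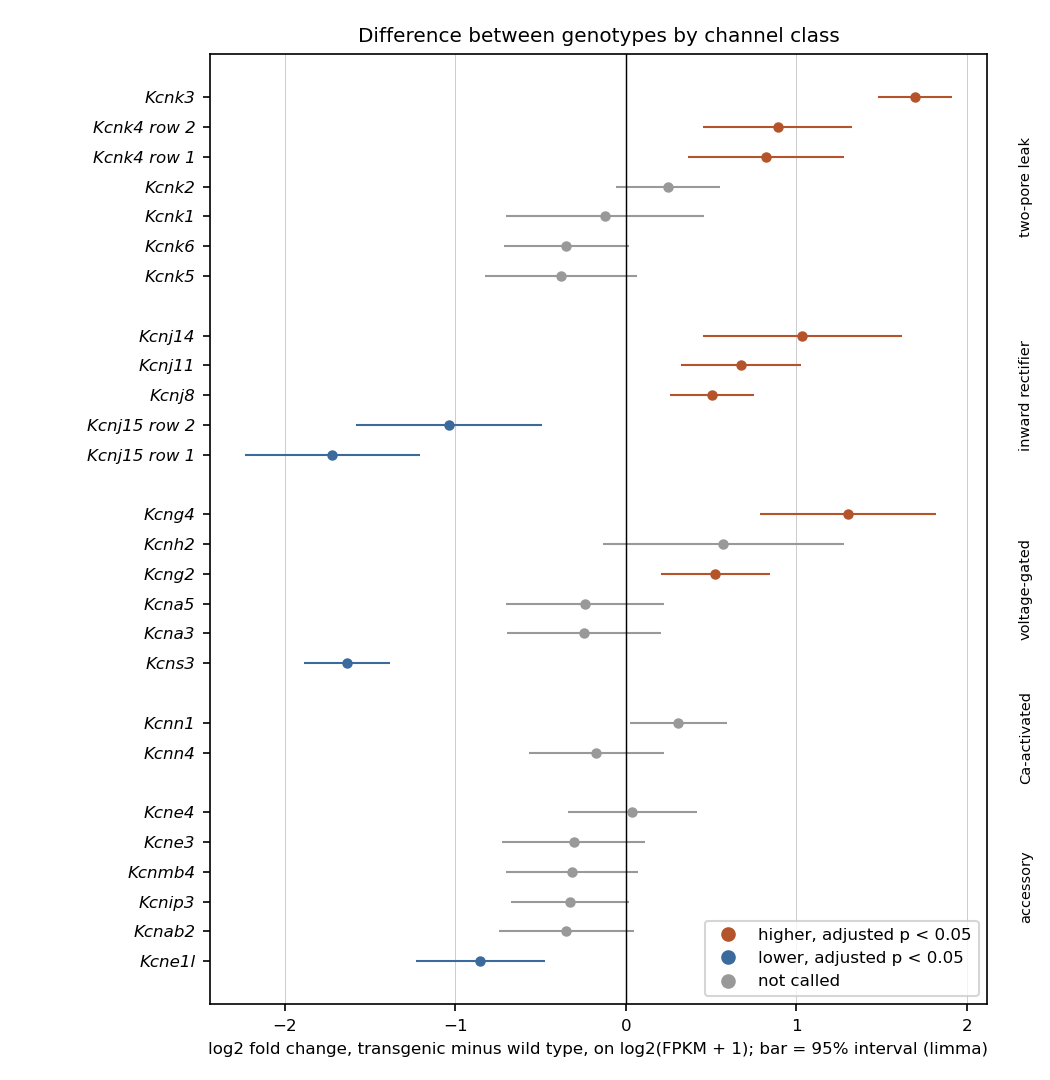
Log2 fold change of 26 of the tested Kcn rows, TG minus WT on log2(FPKM + 1), with its 95% interval from limma (bars) and channel classes separated by gaps. Orange rows were called higher, blue rows lower and grey rows not at all, and Kcnk3, Kcns3 and Kcnj15 row 1 lie farthest from 0, at 1.70, -1.64 and -1.72.

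The 5 Kir rows past the limit were called, 3 higher and 2 lower, beside 18.6% of all loci, and stand for 4 genes. Kcnj11 and both Kcnj15 rows passed the limit in 1 genotype alone, the one in which they were higher, so this count is largely set by the limit. Kcnj8 and Kcnj14 passed in both genotypes. Kcnj8 and Kcnj11 encode Kir6.1 and Kir6.2, the pore subunits of ATP-sensitive potassium channels, which couple membrane potential to the energy state of the cell. Kcnj8 was at 9.59, 9.04 and 7.96 FPKM in TG and 5.40, 5.78 and 6.66 FPKM in WT mice. The groups were apart, and the log2 fold change was 0.51 (SE 0.10, 95% interval 0.26 to 0.75, limma adjusted p = 0.0184). It was not called without TG mouse 1, WT mouse 1 or WT mouse 2 (limma adjusted p = 0.0535, 0.0549 and 0.0614). Nor was it called with no level filter or with the replicate number as a block (limma adjusted p = 0.0618 and 0.0567). Kcnj11 was at 1.48, 1.13 and 1.67 FPKM in TG and 0.639, 0.578 and 0.334 FPKM in WT mice (log2 fold change 0.68, SE 0.15, limma adjusted p = 0.0233). Its groups were apart too, and its call was lost without TG mouse 1, TG mouse 3, WT mouse 2 or WT mouse 3 (limma adjusted p = 0.0578 to 0.0802). With no level filter or with that block, the Kcnj11 call was lost as well (limma adjusted p = 0.0517 and 0.0619).

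ATP-sensitive channels also need a sulfonylurea receptor subunit. Abcc9, which encodes the receptor SUR2, was at 5.66, 5.89 and 5.78 FPKM in TG and 5.71, 5.22 and 7.39 FPKM in WT mice, with a log2 fold change of -0.06 and an adjusted p of 0.765 (limma). The genotypes overlapped. The ratio of Kcnj8 to Abcc9, chosen after these values were seen, was 1.69, 1.53 and 1.38 in TG and 0.945, 1.11 and 0.902 in WT mice. Every TG ratio was above every WT ratio. Abcc8, the gene of the receptor SUR1, was under the level limit. Markers of smooth muscle and pericytes, cells in which Kcnj8 is known to be abundant, summed to 201 to 303 FPKM in TG and 229 to 309 FPKM in WT mice and overlapped, with 0 of 8 called. Within this list, Myh11, Acta2, Tagln, Cnn1 and Pdgfrb leaned lower in TG mice. Des, Rgs5 and Cspg4 leaned higher, Des without overlap. The part of these cells in the Kcnj8 level was not tested.

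Kcnj14, which encodes the strong inward rectifier Kir2.4, was at 5.22, 2.74 and 2.75 FPKM in TG and 1.04, 1.76 and 0.797 FPKM in WT mice. All TG values were above all WT values, with TG mouse 1 far above the other two. The log2 fold change was 1.04 (SE 0.25, limma adjusted p = 0.0300), and the call was lost without TG mouse 1, TG mouse 3, WT mouse 1 or WT mouse 3 (limma adjusted p = 0.0533 to 0.0970). The call was also lost with no level filter or with the replicate number as a block (limma adjusted p = 0.114 and 0.0535).

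Kcnj15, which encodes Kir4.2 and is known from renal tubules and other epithelia, moved the other way. Its first row was at 1.14, 0.703 and 1.10 FPKM in TG and 7.34, 5.98 and 3.73 FPKM in WT mice. The lowest WT value was far above the highest TG value. Its log2 fold change was -1.72 (SE 0.22, 95% interval -2.23 to -1.21, limma adjusted p = 0.00314) and kept its call under all 14 alternatives, at -2.39 to -1.54. The second row, at the same locus (chr16:95188479-95300258), was listed at 0 in TG mice 1 and 3 and at 0.285 FPKM in TG mouse 2, against 1.38, 1.84 and 0.650 FPKM in the WT mice (limma adjusted p = 0.0238). It lost its call without TG mouse 1, TG mouse 3, WT mouse 1 or WT mouse 2 (limma adjusted p = 0.0653 to 0.0758). With no level filter the call of this second row was lost too (limma adjusted p = 0.0817). The epithelial markers summed to 93.5, 125 and 204 FPKM in TG and 225, 189 and 139 FPKM in WT mice. The sums overlapped, and the part of these markers in the Kcnj15 level was not tested. An antisense gene, Gm49643, overlaps 5.78% of the exon bases of Kcnj15, and the library kit does not mark strand.

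Of the 8 Kv rows past the limit, 3 were higher, 1 was lower and 4 were not called, so 50% were called beside 18.6% of all loci. Kcng2 and Kcng4 passed the limit in TG mice alone, in which they were higher, so their part of this count is largely set by the limit. Kcng2, Kcng4 and Kcns3 encode Kv6.2, Kv6.4 and Kv9.3, electrically silent subunits that form no channel alone and alter other Kv channels when they join them.

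The silent subunit genes past the limit, Kcng4, Kcng2 and Kcns3, differed in direction, and the other silent subunit genes were not tested. Kcng4 was at 3.96, 2.66 and 2.59 FPKM in TG and 0.384, 1.19 and 0.435 FPKM in WT mice, with no overlap. Its ratio of means was 4.59 and its log2 fold change 1.30 (SE 0.22, 95% interval 0.78 to 1.82, limma adjusted p = 0.00908). The call was lost only when no level filter was applied (limma adjusted p = 0.0534). Kcng2 was at 1.10, 1.25 and 0.930 FPKM in TG and 0.546, 0.495 and 0.329 FPKM in WT mice, also without overlap (log2 fold change 0.52, limma adjusted p = 0.0380). Its call was lost whichever mouse was left out, with limma adjusted p of 0.0673 to 0.116. The Kcng2 call was also lost with the replicate number as a block (limma adjusted p = 0.0689).

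Kcns3 fell with a narrow spread. It was at 2.37, 2.05 and 2.34 FPKM in TG and 8.26, 8.71 and 10.4 FPKM in WT mice. Every WT value was far above every TG value. The log2 fold change was -1.64 (SE 0.11, 95% interval -1.89 to -1.38, limma adjusted p = 0.000418), and all 14 alternatives kept the call, at -1.97 to -1.55. The means were 9.14 ± 1.15 FPKM in WT and 2.25 ± 0.175 FPKM in TG mice (SD, n = 3 each).

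TG mouse 1 and WT mouse 2 were the highest of their groups for Kcng4 and Kcnj14. They were also the highest of their groups in the sum of Schwann cell and nerve markers, which was 238, 196 and 199 FPKM in TG and 154, 208 and 126 FPKM in WT mice. Of the 6 markers of this list past the limit, S100b and Mbp were called higher, 0 were lower, and Th was at 0 in all mice. The part of nerve cells in these genes was not tested.

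The remaining Kv rows described here were not called. Kcnh2 (hERG) was at 5.17, 5.79 and 2.94 FPKM in TG and 2.49, 4.41 and 1.67 FPKM in WT mice, a log2 fold change of 0.57 with a wide 95% interval of -0.14 to 1.28 (limma adjusted p = 0.214). In both genotypes mouse 2 was the highest and mouse 3 the lowest for this gene. The groups overlapped, since WT mouse 2 (4.41 FPKM) was above TG mouse 3 (2.94 FPKM). Kcna5 (Kv1.5) and Kcna3 (Kv1.3) had log2 fold changes of -0.24 and -0.25 and overlapping values.

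Neither calcium-activated gene past the limit was called, beside 18.6% of all loci. Kcnn4 encodes the intermediate-conductance channel KCa3.1, known from lymphocytes, macrophages and epithelia. It was at 7.94, 12.4 and 12.9 FPKM in TG and 12.2, 12.1 and 12.7 FPKM in WT mice. TG mouse 1 alone was low, and the other 5 mice lay close together. The log2 fold change of -0.17 (95% interval -0.57 to 0.22) became 0.03 without that mouse. TG mouse 1 also had the lowest lymphocyte marker sum, 324 FPKM beside 400 to 570 FPKM in the other 5, and the part of these cells was not tested. Kcnn1 (SK1) was at 2.49, 2.15 and 1.98 FPKM in TG and 1.70, 1.76 and 1.32 FPKM in WT mice. Its groups did not overlap, but its log2 fold change of 0.31 (95% interval 0.02 to 0.60) did not pass the adjusted test (limma adjusted p = 0.118).

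**Figure D4:**
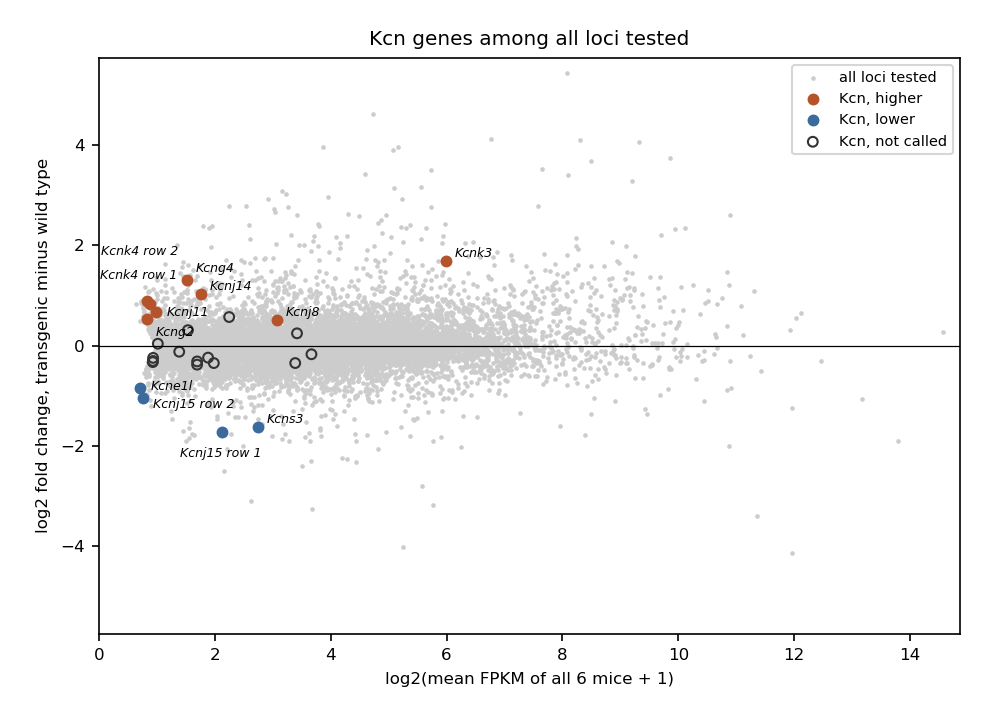
Log2 fold change (TG minus WT) of every tested locus against log2 of its mean FPKM + 1 over the 6 mice, with all 11692 loci in grey and 26 Kcn rows marked by their call. Most called Kcn rows sit at the left, at low level, and Kcnk3 is the one at a high level.

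Of the 6 accessory rows past the limit, 0 were called higher and 1 lower, so 16.7% were called beside 18.6% of all loci. Across all loci, 11.6% were called higher and 7.03% lower. A log2 fold change below 0 was found in 5 of the 6 rows and in 6029 of the 11692 loci. The called row was Kcne1l, on the X chromosome, also known as Kcne5, a single-span subunit that modulates Kv channels. It was at 0.211, 0.185 and 0.0872 FPKM in TG and 1.12, 1.43 and 0.785 FPKM in WT mice. The groups were well apart at a low level, with a log2 fold change of -0.85 (SE 0.16, 95% interval -1.23 to -0.48, limma adjusted p = 0.0131). Kcne1l passed the limit in WT mice alone, and it was under the limit, and so not tested, without WT mouse 2.

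Kcnab2 encodes a cytoplasmic beta subunit of Kv1 channels and was the highest of the accessory class. It was at 6.40, 10.2 and 8.12 FPKM in TG and 9.07, 11.0 and 12.0 FPKM in WT mice. The groups overlapped through TG mouse 2, and the log2 fold change of -0.35 had a 95% interval of -0.74 to 0.05 (limma adjusted p = 0.180). Kcnmb4, a beta subunit of the large-conductance calcium-activated channel, was at 1.78, 2.43 and 1.45 FPKM in TG and 2.04, 2.80 and 2.91 FPKM in WT mice, again with overlap. Its log2 fold change was -0.32 (95% interval -0.70 to 0.07), and 2 antisense genes overlap 26% and 49.3% of its exon bases. Reads of the 2 strands cannot be told apart here. Genes on the other strand also overlap 14.4% of the exon bases of Kcnk2, 8.01% of Kcnk1, 3.41% of Kcng2 and 2.88% of Kcnn1. Kcne4, a regulator of Kv channels, had means of 1.06 and 0.984 FPKM with a log2 fold change of 0.04, and Kcne3 and Kcnip3 had log2 fold changes of -0.31 and -0.33. Macrophage markers were lower in TG mice without overlap, with 4 of 6 called, and their part in the levels of Kcne1l and the other accessory genes was not tested. The summed level of the accessory class overlapped between genotypes.

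The remaining 69 Kcn rows lay under the limit in both genotypes. Of these, 9 were at 0 in all 6 mice, 30 were at 0 in at least 1 mouse, and the highest single value was 1.12 FPKM. Just outside the limit were Kcnq1, with means of 0.692 FPKM in TG and 0.824 FPKM in WT mice, Kcna2, with 0.902 and 0.606 FPKM, and Kcnab3, with 0.905 and 0.438 FPKM. Just inside were Kcne4, Kcna3, with 0.753 and 1.07 FPKM, and Kcng2, with 1.09 and 0.457 FPKM. Kcnma1, the pore of the large-conductance calcium-activated channel to which Kcnmb4 belongs, was at 0.229 and 0.456 FPKM and was not tested. The accessory subunit was read above its pore gene in both genotypes. Antisense genes overlap the Kcnmb4 exons, however, and their reads cannot be told apart from those of Kcnmb4. The files give no counts, so the number of reads behind such low values is unknown.

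**Figure D5:**
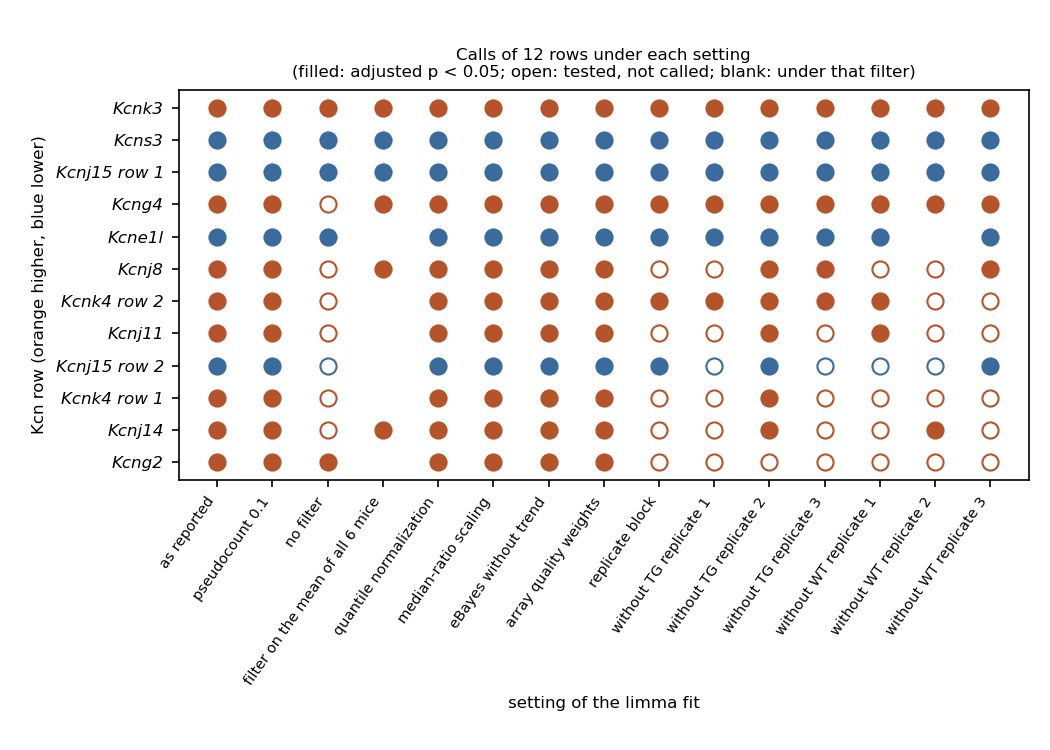
Calls of 12 of the called Kcn rows under each setting of the limma fit, with a filled point for an adjusted p below 0.05, an open point for a row tested but not called and a blank for a row under that filter. Kcnk3, Kcns3 and Kcnj15 row 1 are filled in every column, Kcng4 in every column but that without a level filter, and the rows near the bottom of the plot lose their fill when most single mice are left out.

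Channels draw on the gradient set by the sodium pump, and 45 genes of potassium handling outside the Kcn group were listed as partners. In the table were 42, of which 21 passed the limit. Of these 21, 6 were called higher and 0 lower in TG mice, with 8 at an unadjusted p below 0.05 (limma), and the median log2 fold change of the 21 was -0.03. The share called was 28.6%, beside the 18.6% of all loci. Letm1, which encodes an inner mitochondrial membrane protein of cation and proton exchange, was at 105.6, 98.0 and 90.0 FPKM in TG and 51.5, 46.5 and 44.6 FPKM in WT mice (log2 fold change 1.03, SE 0.10, limma adjusted p = 0.00110). The TG values were all far above the WT values. Abcb8, a mitochondrial transporter linked to an ATP-sensitive potassium channel of that organelle, averaged 35.4 ± 3.84 and 20.3 ± 2.14 FPKM (log2 fold change 0.77, limma adjusted p = 0.0050). Slc24a3, which encodes the potassium-dependent sodium-calcium exchanger NCKX3, averaged 60.7 ± 10.8 and 31.1 ± 5.65 FPKM (log2 fold change 0.94, limma adjusted p = 0.0103).

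At the plasma membrane, Slc12a7, the gene of the potassium-chloride cotransporter KCC4, averaged 25.1 ± 1.85 FPKM in TG and 18.3 ± 0.900 FPKM in WT mice (log2 fold change 0.44, limma adjusted p = 0.0141). The sodium pump subunit Atp1b3 (beta 3) was at 112, 95.1 and 95.3 FPKM in TG and 74.7, 76.0 and 76.1 FPKM in WT mice (log2 fold change 0.41, limma adjusted p = 0.0242). The genotypes did not overlap for it.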

How the data were processed

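RNA was taken with TRIzol from iWAT of 6 mice and made into libraries with the TruSeq v2 kit. Per the labels and methods, single-end reads of 100 bases were mapped by the authors to mm10 with TopHat2 2.0.9 and Bowtie2 2.1.0, and Cufflinks 2.2.1 gave the deposited FPKM of each gene per mouse, after CASAVA 1.8.2. The annotation is not given in the sources used here. No counts were held, so absolute depth is unknown, and the deposited FPKM sums were 466059 to 542096 per mouse. From these values, limma 3.58.1 (R 4.3.3, trended variance) was fitted on log2(FPKM + 1) to all 11692 loci with a mean over 1 FPKM in a genotype, TG against WT. Fold changes are on that scale, which understates those of low genes. In this design (3 and 3 mice) the smallest exact permutation p for a single gene is 0.1, 2-sided, so none was used for calls. Intervals are 95%, and errors are SD over mice. Classes follow gene symbols. Values are given for called rows, for Kcnk3, for the 3 most abundant rows of each class and for the 5 partner genes of lowest adjusted p, and further rows were named after their values were seen. Some genes and a sequence that this rule would name are not reported here, though counts include them. The members and lists were chosen with earlier results of these data known. Alternatives varied the pseudocount, filter, scaling, variance model, threshold, replicate block and mice. Signature codons were searched in frame in 1 coding sequence per gene, and 94 of 95 symbols matched one. The script was tested on simulated data.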

Additional observations from a re-analysis of the deposited data

How the results depend on the processing

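The 13 calls were the same 13 rows with a pseudocount of 0.1, quantile normalization, median-ratio scaling, no variance trend and array quality weights. The count of 9 higher rows was 4 with no level filter (97 Kcn rows tested, where calls over all loci also fell from 18.6% to 5.81%), 5 with the filter on the mean of all 6 mice (19 tested), and 2 at an adjusted p below 0.01. It ranged from 3 to 8 when 1 mouse was left out. The 4 lower rows were 2 with the filter on the mean of all 6 mice and 2 at an adjusted p below 0.01, and ranged from 2 to 4 with 1 mouse left out. Partner genes, 6 higher and 0 lower, became 2 higher at an adjusted p below 0.01 and 1 when a 2-fold change was asked as well. Lower calls among them were 2 with quantile normalization and 1 with array quality weights, and with 1 mouse left out the ranges were 3 to 6 higher and 0 to 2 lower. With the replicate number as a block, 4 Kcn rows were higher and 4 lower, 7 of these 8 shared with the reported 13, and Kcnh2 was the other. Partner genes stayed at 6 and 0. Same-numbered mice deviated together with correlations of 0.0129, 0.0344 and 0.0701, so the numbers were not taken as a pairing. The log2 fold change of Kcnn4 ranged from -0.288 to 0.0291 with 1 mouse left out, the last without TG replicate 1. Over all named genes and alternatives, 253 values kept direction and call, 46 lost the call and 1 reversed, and the causes were not tested. Unknown read depth limits the rows near 1 FPKM.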

Other observations

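Without a level filter, further Kcn rows that are under the limit were called. Kcna1 (Kv1.1) was at 0.684, 0.662 and 0.816 FPKM in TG and 0.311, 0.312 and 0.403 FPKM in WT mice. Kcnc2 (Kv3.2) was at 0.0174, 0.00544 and 0.0180 FPKM in TG and 0.152, 0.132 and 0.106 FPKM in WT mice. The genotypes did not overlap for either gene, and the number of reads behind such low values is unknown.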
